A study of Mus musculus with 6 samples.

Results

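Erythropoietin (Epo) and the genes through which cells sense oxygen and regulate it were followed in RNA sequencing of cultured mouse hepatic stellate cells. The 10 genes were Epo, its receptor Epor, the HIF subunits Epas1, Hif1a, Hif3a and Arnt, the prolyl hydroxylases Egln1, Egln2 and Egln3, and Vhl, taken by gene name from the 55401 genes of the deposited table. The set was chosen by the counts of Epo in these same libraries, where they were present in the S100a16+/- group and at 0 in the WT group, so the Epo difference is given as a description with no test. The other 9 genes were added for their known place in the pathway.

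Stellate cells are the vitamin A-storing pericytes of the liver, which turn into collagen-producing myofibroblasts in culture. Cells came from S100a16+/- mice, which are heterozygous for the gene of an EF-hand calcium-binding protein, and from WT mice, both on the C57BL/6J background. All were grown for 7 days in medium with FBS, with no other treatment, and 3 libraries were made per genotype. The labels give neither the age of the mice, the construction of the S100a16 allele nor the oxygen level of the cultures, and they do not say whether libraries came from separate animals. The p-values therefore measure the spread between these samples.

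In the presence of oxygen, the prolyl hydroxylases encoded by the Egln genes modify the HIF alpha subunits, and the Vhl protein then marks these subunits for degradation. When oxygen is low the alpha subunits persist, pair with Arnt and raise transcription from sites that carry the HIF core. Epo is the hormone that sustains red cell production; the fetal liver and then the adult kidney are its main sources, and in the adult liver hepatocytes and stellate-type cells can make it. This oxygen control acts on HIF protein, so the mRNA levels given here do not measure HIF activity.

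The promoters of Epo, Epor and Egln3 are shown because these genes had the widest relative spread between libraries among the members with over 1 FPKM in any library. Each is 300 bases of RefSeq on GRCm38.p6, from 250 bases before to 50 after the start site, read 5′ to 3′ on the strand of the gene. Capitals mark the HIF cores ACGTG and GCGTG and the GATA core GATAA, each on either strand. The Epo window is chr5:137485767-137486066, that of Epor chr9:21963527-21963826 and that of Egln3 chr12:54203825-54204124, all on the minus strand.
Epo: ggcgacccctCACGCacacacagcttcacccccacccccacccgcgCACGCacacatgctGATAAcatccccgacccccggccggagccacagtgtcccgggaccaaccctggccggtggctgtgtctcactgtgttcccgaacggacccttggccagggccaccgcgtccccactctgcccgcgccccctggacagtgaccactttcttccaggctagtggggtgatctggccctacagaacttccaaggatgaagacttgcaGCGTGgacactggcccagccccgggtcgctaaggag
Epor: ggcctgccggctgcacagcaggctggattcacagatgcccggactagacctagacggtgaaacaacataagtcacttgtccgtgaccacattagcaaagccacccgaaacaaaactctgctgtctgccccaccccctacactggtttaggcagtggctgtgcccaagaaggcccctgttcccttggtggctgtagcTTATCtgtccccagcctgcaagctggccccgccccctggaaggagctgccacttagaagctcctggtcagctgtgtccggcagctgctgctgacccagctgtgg
Egln3: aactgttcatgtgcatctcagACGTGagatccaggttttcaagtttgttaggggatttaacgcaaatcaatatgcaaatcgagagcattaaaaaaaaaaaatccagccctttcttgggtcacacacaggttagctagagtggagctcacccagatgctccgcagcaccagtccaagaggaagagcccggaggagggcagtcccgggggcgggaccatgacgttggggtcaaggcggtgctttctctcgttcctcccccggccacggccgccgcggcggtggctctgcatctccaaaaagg

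The Epo window held 3 matches to GCGTG, of which those at -240 and -204 from the start site lay on the opposite strand, printed as CACGC, and that at 15 on the strand of the gene. It also held GATAA at -190, a core bound by GATA factors. The Epor window held no HIF core and a single GATAA on the opposite strand at -54, printed as TTATC. The Egln3 window held ACGTG at -229. Windows were found for 9 of the 10 genes, all but Epas1, and 7 of these had at least a single HIF core while 2 had GATAA. Among 32544 distinct mouse promoter windows of the same length, 44% held either HIF core and 25.3% held GATAA. A match is a string of letters and not a bound site.

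The libraries held between 61979103 and 76291481 counts. S100a16 itself had 18.0, 17.7 and 30.0 FPKM (a level scaled to exon length and library size) in the S100a16+/- libraries, against 57.7, 58.8 and 56.8 FPKM in the WT libraries. The log2 change was -1.35 ± 0.21 (SE, edgeR adjusted p = 0.0313), and S100a16 was lower in each library labelled S100a16+/- than in every WT library. Replicate 3 of the S100a16+/- group stood apart. Its log2(FPKM + 1) values correlated across genes at r = 0.930 and 0.929 with replicates 1 and 2 of its group, which correlated at 0.987 with each other, while the WT libraries correlated at 0.981 to 0.985. Its Xist, transcribed from the inactive X chromosome, was 32.2 FPKM, against at most 0.0323 FPKM in the other libraries, and its Ddx3y, on the Y chromosome, was 0.0102 FPKM, against 12.1 to 15.8 FPKM. Its Acta2, a myofibroblast marker, was 48.0 FPKM, against 489 and 470 FPKM in the other S100a16+/- libraries and 388, 437 and 425 FPKM in WT. Where the call of a member or of a named pathway gene turned without this library, its values without it are given too. Transcripts of macrophages, endothelial cells and hepatocytes were present as well, and those of macrophages were abundant. In WT the summed FPKM was 10438 to 10996 over 15 macrophage markers and 1740 to 1890 over 14 endothelial markers. Over 20 stellate markers it was 1033 to 1148. Sums over different genes do not give cell shares, but the levels below are those of the whole culture and not of stellate cells alone. Since the RNA is bulk, fewer cells of a type and less RNA per cell cannot be told apart.

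Counts were assigned to the Epo gene in all 3 S100a16+/- libraries and in no WT library. Which of its exons hold them cannot be told from these data, as set out below. The gene (ENSMUSG00000029711, chromosome 5, 137483020 to 137533242, minus strand) had 407, 148 and 103 counts in S100a16+/- replicates 1, 2 and 3, against 0, 0 and 0 counts in the WT replicates. The groups did not overlap. These counts were 6.04, 2.22 and 1.75 FPKM in S100a16+/-, a mean of 3.34 ± 2.35 FPKM (SD, n = 3). Replicate 1 held 61.9% of the 658 counts, and its scaled level was 2.70 and 3.52 times that of replicates 2 and 3, which differed by 1.31 times. Against a floor of 3 counts over the WT group, counts assigned to Epo were at least 241-fold higher in S100a16+/- on the CPM scale. This bound covers counting error only. Without replicate 1 the bound was 141-fold, and without S100a16+/- replicates 2 or 3 it was 284-fold and 295-fold. Without a WT library it was 155-fold to 168-fold, but under a fixed floor only the WT depth changes there. Epo was chosen for its 0 counts in WT, so these values describe the counts and are no check of the difference. Of the 12766 genes tested, 69.8% had a higher mean FPKM in S100a16+/- than Epo. Epo entered those 12766 genes, which had at least 1 FPKM in at least 3 of 6 libraries, only through the S100a16+/- group.

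**Figure D1:**
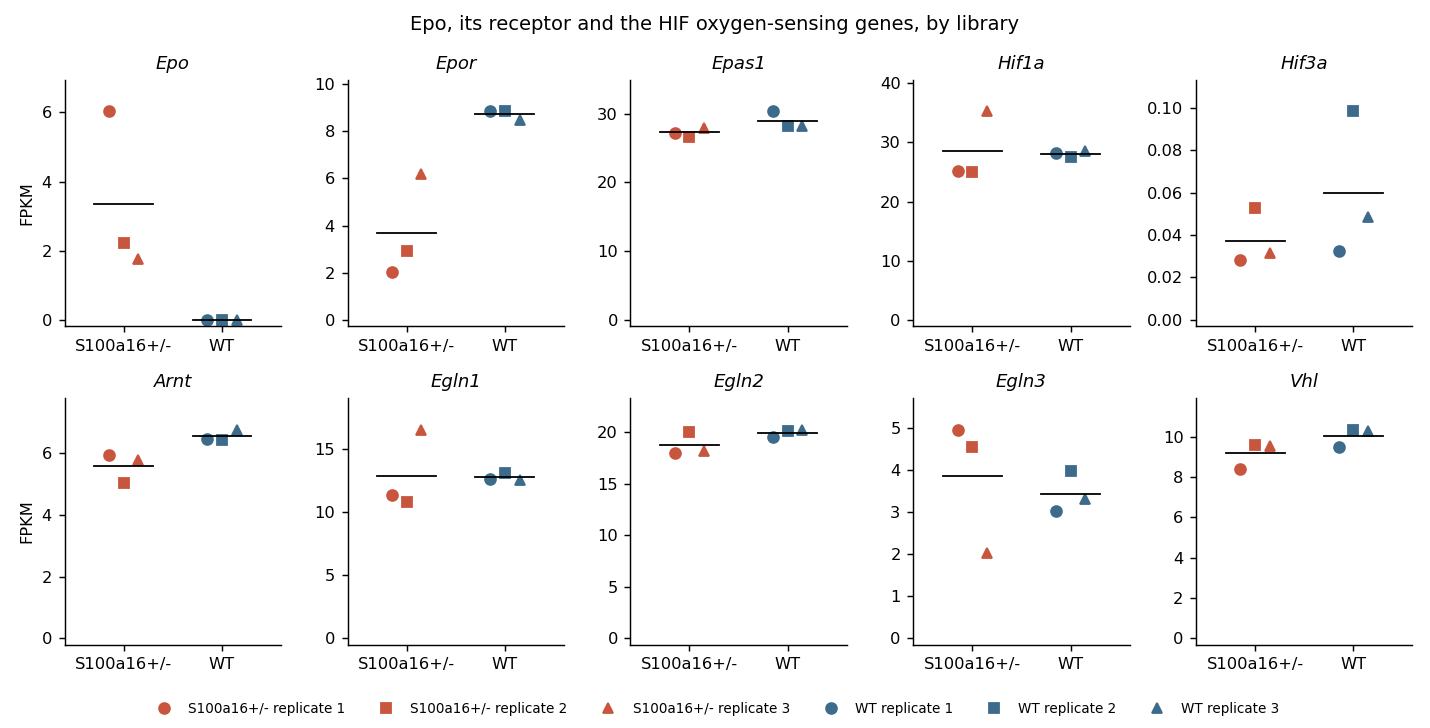
FPKM of the 10 genes in each library, with a panel per gene, its own linear axis from 0, S100a16+/- libraries in red and WT libraries in blue; the line is the mean of 3 libraries. Epo lies at 1.75 to 6.04 in S100a16+/- and at 0 in WT, Epor is lower in each S100a16+/- library than in every WT library, and the groups lie close together for Epas1, Hif1a, Egln1 and Egln2 apart from replicate 3.

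Epo was chosen for this pattern, so the other genes that share it are given as a description only. A single other gene was at 0 in every WT library with at least 50 counts in every S100a16+/- library, the predicted gene Gm49519 with 79, 50 and 56 counts in S100a16+/-. The predicted gene Gm13230 had the opposite pattern, at 0 in S100a16+/- against 102, 92 and 93 counts in WT. Jumps between replicates did occur. Of the genes with at least 100 counts in a library of the group, 124 of 14374 in S100a16+/- and 33 of 14336 in WT also had a library of that group at 0.

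The annotated span of Epo is long and crosses other genes. It covers 50223 bases because a single transcript, Epo-202, begins 47426 bases upstream of the other transcripts, in a first exon of 104 bases at 137533139 to 137533242 (coordinates as in GENCODE M21, GRCm38, where the span of Epo equals that in the table). All 104 bases also lie within an exon of Gnb2, a G protein beta subunit gene on the same strand. Epo-201 and Epo-203 begin at 137485816 and share no exon base with Gnb2. Of the 855 exon bases of Epo, 12.2% are shared with Gnb2 and 751 are its own.

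Gnb2 was expressed at like levels in both groups, with 13414, 11235 and 10949 counts in S100a16+/- against 12631, 13588 and 12841 counts in WT. Epo counts were 3.03%, 1.32% and 0.941% of those of Gnb2 in S100a16+/- replicates 1, 2 and 3, and 0% in each WT library. The WT libraries thus had no Epo count beside as many Gnb2 counts as the S100a16+/- libraries had. The Gnb2 log2 change was 0.00 ± 0.08 (SE, edgeR adjusted p = 0.995), and its sign turned under other scalings.

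Of the other genes inside the span, none shared an exon base with Epo. The RNA-processing gene Pop7 had 833, 882 and 705 counts in S100a16+/- against 824, 1064 and 959 in WT, and Gigyf1, a translation regulator on the opposite strand, had 2754, 3065 and 3091 in S100a16+/- against 3043, 3533 and 3003 in WT. Neither stood apart between the groups, with log2 changes of -0.10 ± 0.10 and 0.04 ± 0.11 (SE, edgeR adjusted p = 0.631 and 0.872). Gm8066 had 94, 100 and 152 counts in S100a16+/- against 104, 143 and 94 in WT. The antisense 9130604C24Rik had 23, 16 and 4 counts in S100a16+/- against 46, 50 and 35 in WT, lower in each S100a16+/- library than in every WT library. Gm17112 and Mir6418 had at most 24 counts in any library. The nearest genes outside the span were almost silent in both groups, with Zan at 0.0389 FPKM or less and Actl6b at 0.0288 FPKM or less in every library.

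The table gives a single count per gene, so it does not tell which Epo exons hold the 658 counts. The FPKM values do not tell either. The exon length implied by count over FPKM was 856.5, 855.5 and 859.3 bases in S100a16+/- replicates 1, 2 and 3, close to the union of all annotated Epo exons, and the same scaling was seen at Gnb2, with 3401.8 bases implied in S100a16+/- replicate 1 for a union of 3402. Whether the counts come from the hormone's coding exons, from the exon shared with Gnb2 or from both was not tested.

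**Figure D2:**
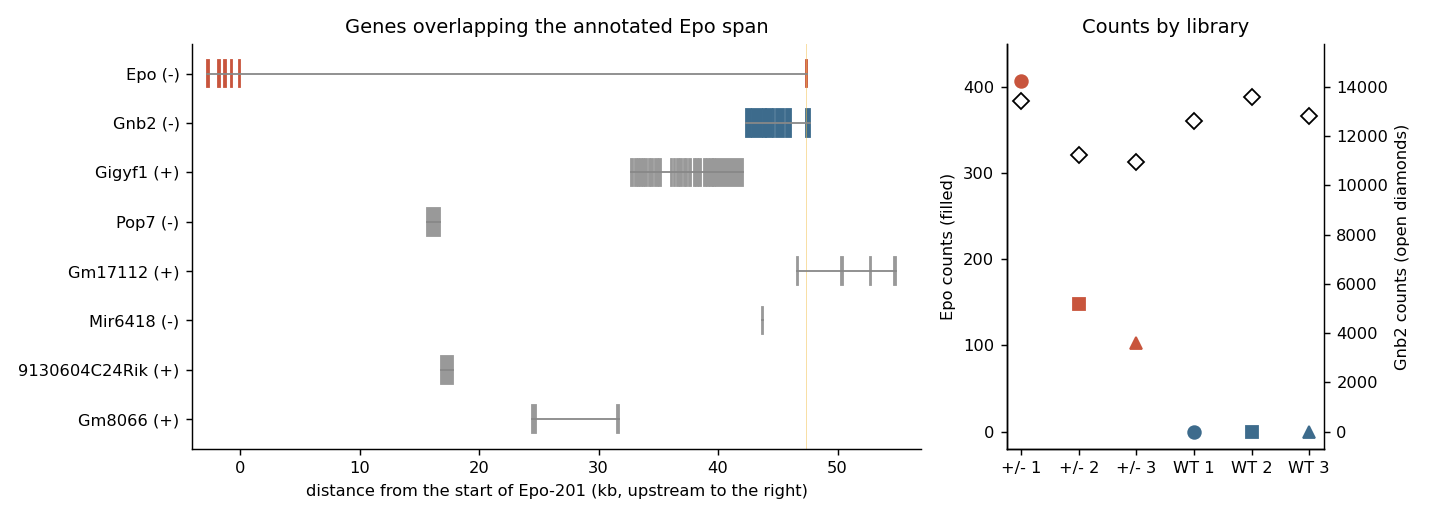
Left, exons (boxes) of Epo and of the 7 annotated genes that overlap its span, by distance in kilobases from the start of Epo-201, with strand in brackets and the vertical line at the far first exon of Epo-202. Right, counts per library of Epo (filled, left axis) and Gnb2 (open diamonds, right axis), where Epo is at 0 in the 3 WT libraries while Gnb2 has 10949 to 13588 counts in all 6.

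Epor (ENSMUSG00000006235, minus strand of chromosome 9, 21958897 to 21963506), the cytokine receptor that binds Epo, lay below WT in every S100a16+/- library, although with all 6 libraries the difference missed the threshold. It had 2.01, 2.92 and 6.17 FPKM in S100a16+/- replicates 1, 2 and 3, against 8.86, 8.86 and 8.47 FPKM in WT. As a percent of the WT mean these were 23.1%, 33.4% and 70.7%, so the groups did not overlap, and replicate 3 lay nearest to WT. The means were 3.70 ± 2.19 FPKM in S100a16+/- and 8.73 ± 0.230 FPKM in WT (SD, n = 3 each). The log2 change was -1.19 ± 0.40 (SE, edgeR adjusted p = 0.161). Without S100a16+/- replicate 3 it was -1.76 (edgeR adjusted p = 0.00145), and with all libraries DESeq2 gave an adjusted p of 0.0285.

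Endothelial transcripts moved with Epor in replicates 1 and 2, but not they alone. The scaled level of Epor relative to the WT mean was -1.94, -1.44 and -0.46 on the log2 scale in S100a16+/- replicates 1, 2 and 3. The median of 12 tested endothelial markers on the same scale was -1.03, -1.05 and 0.23. That of 10 tested hepatocyte markers was -2.37, -2.79 and 2.64, and the sole lymphocyte marker tested was at -1.75, -2.08 and 0.03. Of the 2 endothelial markers of highest level, Cdh5 had 290, 283 and 930 FPKM in S100a16+/- against 698, 628 and 657 FPKM in WT, and Eng had 173, 165 and 212 FPKM in S100a16+/- against 176, 164 and 157 FPKM in WT. The summed FPKM of all 14 endothelial markers ran from 848 to 2156 in S100a16+/- and from 1740 to 1890 in WT, and no endothelial marker was at 0 in all libraries. None of the 12 passed the edgeR test over all libraries, beside 4.46% of all genes tested. Without S100a16+/- replicate 3, 10 of 12 were called lower. In that fit 16.4% of all genes tested were called lower. In replicate 3 Epor was at -0.46 and the endothelial median at 0.23. The part of cell makeup in the Epor difference was not tested.

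**Figure D3:**
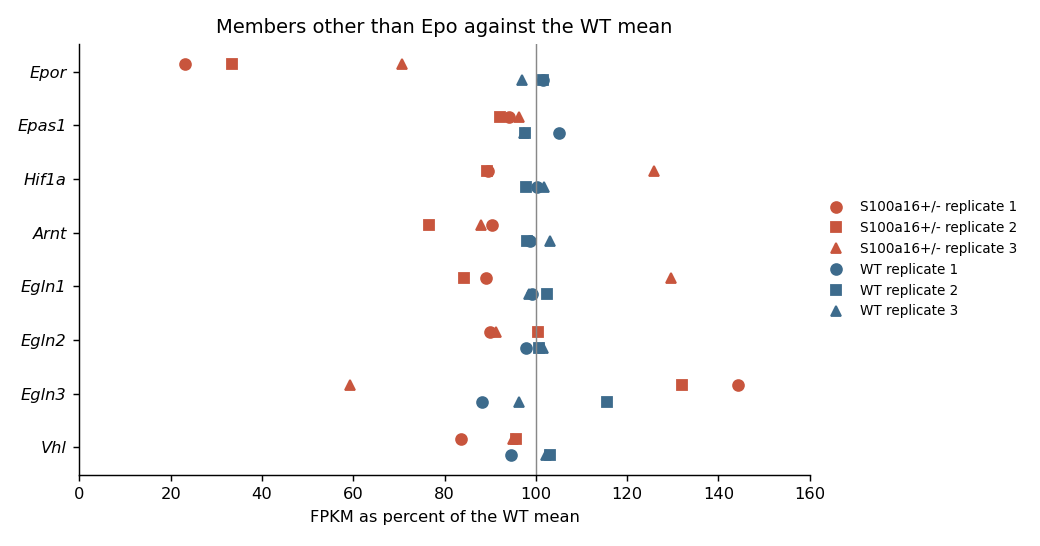
FPKM of the 8 other tested genes in each library as a percent of the WT mean of that gene (linear axis), S100a16+/- in red above WT in blue, symbols by replicate. Epor lies at 23.1%, 33.4% and 70.7% in S100a16+/-, and replicate 3 (triangles) is highest for Hif1a and Egln1 and lowest for Egln3.

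The alpha subunits that respond to oxygen were expressed at about the same level in both genotypes. Epas1 (chromosome 17, 86753700 to 86833410, plus strand), which encodes HIF-2 alpha, the subunit best known for control of Epo, had 27.2, 26.7 and 27.9 FPKM in S100a16+/- against 30.4, 28.2 and 28.2 FPKM in WT. The groups did not overlap on this scale, but the gap was small, and on the TMM scale used for testing they did overlap. The log2 change was -0.04 ± 0.06 (SE, edgeR adjusted p = 0.778).

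Hif1a (chromosome 12, 73901375 to 73947530, plus strand), which encodes the more widely expressed alpha subunit, had 25.1, 25.0 and 35.3 FPKM in S100a16+/- against 28.1, 27.5 and 28.6 FPKM in WT. Replicate 3 was the highest library and the other S100a16+/- libraries were the lowest, so the groups overlapped. The log2 change was 0.07 ± 0.14 (SE, edgeR adjusted p = 0.813), and without S100a16+/- replicate 3 it was -0.10 (edgeR adjusted p = 0.0908). Hif1a shares 148 exon bases with Snapc1l, which had 0 counts in all libraries, and 330 with the antisense Gm15283, which had 13, 18 and 14 counts in S100a16+/- against 37, 27 and 29 in WT.

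The balance of the alpha subunits followed replicate 3 as well. The ratio of Epas1 to Hif1a FPKM was 1.08, 1.07 and 0.789 in S100a16+/- replicates 1, 2 and 3, against 1.08, 1.03 and 0.987 in WT. Hif3a (chromosome 7, 17031507 to 17062427, minus strand), whose product can hold back the other alpha subunits, was barely detected, with 15, 28 and 15 counts in S100a16+/- against 16, 57 and 27 in WT. These are 0.0280, 0.0525 and 0.0314 FPKM in S100a16+/- and 0.0326, 0.0984 and 0.0483 FPKM in WT. It fell below the expression filter and was not tested.

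Arnt (chromosome 3, 95434388 to 95497237, plus strand, in the table), the partner that every HIF alpha subunit needs to bind DNA, had 5.94, 5.04 and 5.77 FPKM in S100a16+/- against 6.49, 6.44 and 6.78 FPKM in WT. All S100a16+/- libraries were below all WT libraries, but the difference missed the threshold, at -0.18 ± 0.08 on the log2 scale (SE, with an adjusted p of 0.244 in edgeR).

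Among the prolyl hydroxylases, Egln2 was the most abundant and Egln3 the least in each of the 6 libraries. Egln1 (chromosome 8, 124908587 to 124949324, minus strand), the main oxygen sensor of most cells, had 11.4, 10.8 and 16.6 FPKM in S100a16+/- against 12.7, 13.1 and 12.6 FPKM in WT. As for Hif1a, replicate 3 was above all WT libraries and the other S100a16+/- libraries below them. The log2 change was 0.06 ± 0.16 (SE, edgeR adjusted p = 0.865), and without S100a16+/- replicate 3 it was -0.14 (edgeR adjusted p = 0.0973).

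Egln2 (chromosome 7, 27158658 to 27166802, minus strand), a hydroxylase not known for strong induction by low oxygen, had 17.95, 20.0 and 18.2 FPKM in S100a16+/- against 19.5, 20.1 and 20.2 FPKM in WT. The groups overlapped, with a log2 difference of -0.04 ± 0.07 (SE, edgeR adjusted p = 0.794). Egln3 (chromosome 12, 54178981 to 54203860, minus strand), a hydroxylase gene that HIF readily induces, had 4.95, 4.53 and 2.03 FPKM in S100a16+/- against 3.02, 3.97 and 3.30 FPKM in WT. Replicates 1 and 2 were above every WT library and replicate 3 below every one. The log2 change over all libraries was 0.22 ± 0.35 (SE, edgeR adjusted p = 0.763), and without S100a16+/- replicate 3 it was 0.53 (edgeR adjusted p = 0.0359), or 144% and 132% of the WT mean in the libraries left.

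The proportions of the hydroxylases moved accordingly. Egln3 over Egln2 in FPKM was 0.276, 0.226 and 0.112 in S100a16+/- replicates 1, 2 and 3 against 0.155, 0.198 and 0.163 in WT, and Egln1 over Egln2 was 0.635, 0.539 and 0.911 in S100a16+/- against 0.649, 0.653 and 0.622 in WT. Stellate markers moved with Egln3. Its scaled level relative to the WT mean was 0.56, 0.45 and -0.68 on the log2 scale in S100a16+/- replicates 1, 2 and 3, and the median of 13 tested stellate markers was 0.29, 0.27 and -1.62. The part of cell makeup in this difference was not tested.

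Vhl (chromosome 6, 113623959 to 113631633, plus strand), the recognition subunit of the ligase that marks hydroxylated HIF for degradation, had 8.40, 9.61 and 9.56 FPKM in S100a16+/- against 9.51, 10.4 and 10.3 FPKM in WT. The groups overlapped, with a log2 difference of -0.08 ± 0.08 (SE, edgeR adjusted p = 0.645). Overlap with other genes was slight beyond Epo and Hif1a. Egln2 shares 11 exon bases with the antisense Cyp2t4, which had at most 20 counts in any library. Gm50008 in Epas1, Gm42672 in Arnt and 4833404L02Rik in Hif3a share no exon base with their hosts and also had at most 20 counts. Epor, Egln1, Egln3 and Vhl overlap no annotated gene.

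Over the 8 members other than Epo that were tested, 0 were called in the edgeR fit at an adjusted p under 0.05, beside 4.46% of all 12766 genes tested. At an unadjusted p under 0.05, 1 of the 8 passed, which was Epor, beside 2807 of the 12766 genes tested. Groups did not overlap in FPKM for 3 of the 8, Epor, Epas1 and Arnt, which is 37.5% beside 31.4% of all genes tested. Without S100a16+/- replicate 3, 2 of the 8 were called, Epor lower and Egln3 higher, beside 32.2% of all genes tested. DESeq2 called Epor alone among the 8, beside 14.9% of all genes it tested. Nothing is read from these shares, since the members were chosen with this contrast known.

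The order of mean levels in FPKM was Hif1a (28.5), Epas1 (27.3), Egln2 (18.7), Egln1 (12.9), Vhl (9.19), Arnt (5.58), Egln3 (3.84), Epor (3.70), Epo (3.34) and Hif3a (0.0373) in S100a16+/-. In WT it was Epas1 (28.9), Hif1a (28.1), Egln2 (19.9), Egln1 (12.8), Vhl (10.05), Epor (8.73), Arnt (6.57), Egln3 (3.43) and Hif3a (0.0598), with Epo at 0 counts. Epas1 and Hif1a lay within their spread of each other in both genotypes, and so did Egln3, Epor and Epo in S100a16+/-. Epor held the place above Arnt in each WT library and below it in S100a16+/- replicates 1 and 2, while in replicate 3 it was the higher of the pair.

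**Figure D4:**
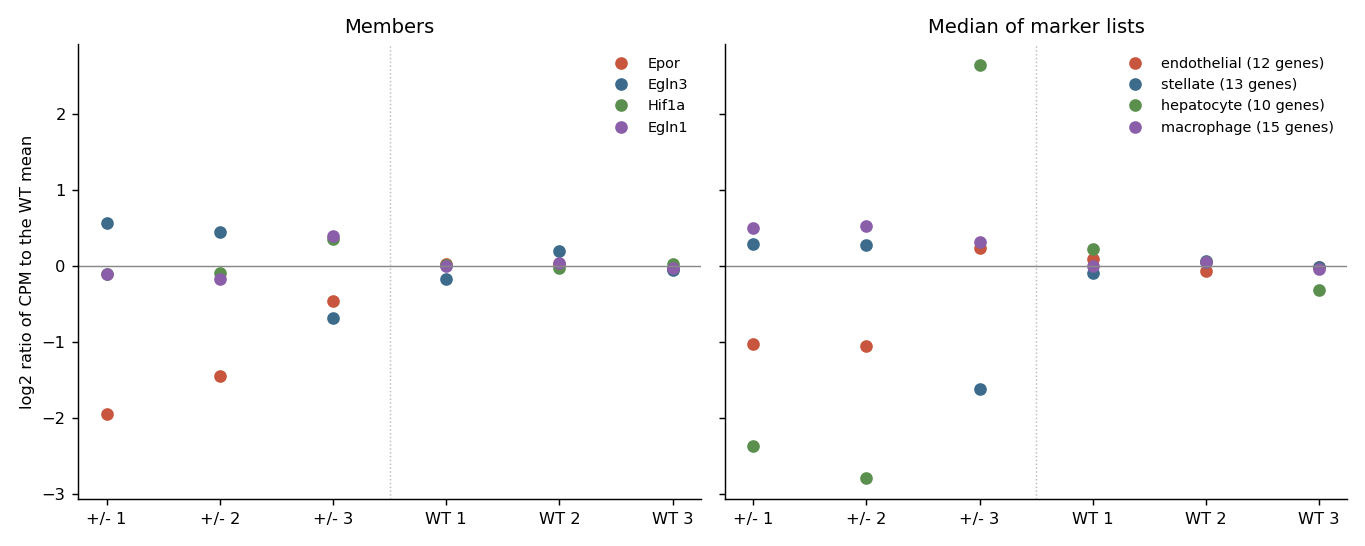
Log2 ratio to the WT mean of scaled counts in each library for Epor, Egln3, Hif1a and Egln1 (left) and the median of 4 cell type marker lists (right), S100a16+/- libraries left of the dotted line and WT libraries right of it. In S100a16+/- replicate 3 the hepatocyte median is 2.64 and the stellate median -1.62, while replicates 1 and 2 have endothelial medians of -1.03 and -1.05.

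The partners of the pathway did not move as a group. Of 20 genes that hydroxylate, chaperone, degrade or co-activate HIF, 19 were tested. In the edgeR fit 0 were called, beside 4.46% of all genes tested. The median log2 change was 0.01, beside 0.00 for all genes tested. Groups did not overlap for 7 of the 19, beside 31.4% of all genes tested. Ep300, a co-activator of HIF, had 9.68, 10.1 and 9.81 FPKM in S100a16+/- against 8.71, 8.41 and 8.69 FPKM in WT, without overlap (log2 change 0.25 ± 0.05 SE, edgeR adjusted p = 0.0687). Cited2, which competes with HIF for that co-activator, had 17.0, 15.6 and 15.7 FPKM in S100a16+/- against 30.8, 19.9 and 21.4 FPKM in WT, also without overlap (log2 change -0.53 ± 0.18 SE, edgeR adjusted p = 0.166). Without S100a16+/- replicate 3, Ep300 was called higher and Siah1a, a ligase that acts on the hydroxylases, was called lower (edgeR adjusted p = 0.00653 and 0.00609). In that fit 32.2% of all genes tested were called.

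Genes known as HIF targets were then counted, and whether HIF set their levels was not tested. Of 50 such genes, 48 were tested, and 6 were called higher and 1 lower, or 14.6% called in either direction. Over all genes tested 2.85% were called higher and 1.61% lower. The balance depended on scaling, since library totals and both limma fits called 3 of the 48 higher and 2 lower. The median log2 change of the 48 was 0.09, beside 0.00 for all genes, and groups did not overlap for 17 of them (35.4%), beside 31.4% of all genes tested. The 7 genes called were called in the same direction without S100a16+/- replicate 3, when 16 were called higher and 13 lower (60.4% of the 48). In that fit 15.8% of all genes tested were called higher and 16.4% lower. These calls rest on the full design, since 0 or 1 of the 48 was called when any other library was left out. The same held for all genes, of which 32 to 80 of 12766 were then called.

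Within these targets, the genes called in glucose uptake and glycolysis were all higher in S100a16+/-. Of 20 tested genes 4 were called higher and 0 lower, beside 2.85% and 1.61% of all genes tested. Their median log2 change was 0.22. Of all genes called in this fit, 63.9% were higher. Hk2, a hexokinase that commits glucose to glycolysis, had 15.9, 16.1 and 15.9 FPKM in S100a16+/- against 11.5, 12.3 and 12.6 FPKM in WT, or 0.45 ± 0.06 on the log2 scale (SE, with an adjusted p of 0.0218 in edgeR). Slc2a1, the glucose carrier GLUT1, had 33.3, 31.9 and 30.1 FPKM in S100a16+/- against 25.2, 26.55 and 25.8 FPKM in WT, or 0.35 ± 0.07 on the log2 scale (SE, with an adjusted p of 0.0479 in edgeR). For both genes all S100a16+/- libraries lay above all WT libraries.

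The other pair called higher were the phosphofructokinase gene Pfkp and the hexokinase gene Hk1. Pfkp had 3.92, 3.96 and 3.26 FPKM in S100a16+/- against 2.22, 2.53 and 2.22 FPKM in WT, with a log2 difference of 0.73 ± 0.11 (SE, edgeR adjusted p = 0.0313). Hk1 averaged 16.7 ± 0.421 FPKM in S100a16+/- and 14.3 ± 0.0748 FPKM in WT (SD, n = 3 each; log2 change 0.27 ± 0.05 SE, edgeR adjusted p = 0.0474). Ldha and Pgk1, classic targets of HIF-1, had log2 changes of 0.23 and 0.21 that did not pass (edgeR adjusted p = 0.177 and 0.248), and without S100a16+/- replicate 3 both passed, at 0.29 and 0.28 (edgeR adjusted p = 0.00804 and 0.00660). The number of glycolysis genes called was 2 with library totals, in the limma fits and with edgeR's own filter, where the calls of Hk1 and Slc2a1 were lost, and 0 with no filter.

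The remaining targets went both ways, with 2 called higher and 1 lower of 28 tested, beside 2.85% and 1.61% of all genes tested. Their median log2 change was -0.03. Hmox1, the haem-degrading enzyme, had 1081, 1129 and 774 FPKM in S100a16+/- against 497, 520 and 485 FPKM in WT, or 1.04 ± 0.17 on the log2 scale (SE, with an adjusted p of 0.0340 in edgeR). Stc2, a secreted glycoprotein gene, had 0.492, 0.580 and 1.01 FPKM in S100a16+/- against 1.97, 2.40 and 2.51 FPKM in WT, or -1.67 ± 0.29 on the log2 scale (SE, with an adjusted p of 0.0392 in edgeR). Neither gene overlapped between the groups. Hmox1 is also highly expressed by liver macrophages, and 5 of 15 macrophage markers were called higher as well, beside 2.85% of all genes tested.

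Tfrc, the transferrin receptor for iron uptake, averaged 20.5 ± 0.516 FPKM in S100a16+/- and 17.6 ± 0.374 FPKM in WT (SD, n = 3 each; log2 change 0.27 ± 0.05 SE, edgeR adjusted p = 0.0449). This call was lost with library totals, in both limma fits, with edgeR's own filter and with no filter (adjusted p = 0.0815 to 0.131). Vegfa, the angiogenic growth factor, had 5.41, 5.25 and 6.48 FPKM in S100a16+/- against 5.30, 5.91 and 5.26 FPKM in WT, with overlap and a log2 difference of 0.11 ± 0.10 (SE, edgeR adjusted p = 0.607). Car9, the carbonic anhydrase gene often read as a marker of low oxygen, had 2.14, 2.38 and 1.80 FPKM in S100a16+/- against 1.75, 2.20 and 2.02 FPKM in WT, also with overlap (log2 change 0.14 ± 0.17 SE, edgeR adjusted p = 0.695). Vegfa and Car9 were named after their values were seen. Cxcr4, a chemokine receptor that HIF is known to induce, had 14.9, 17.3 and 52.4 FPKM in S100a16+/- against 69.4, 64.9 and 60.2 FPKM in WT (log2 change -1.16 ± 0.49 SE, edgeR adjusted p = 0.241). Without S100a16+/- replicate 3 Cxcr4 was called lower, by -1.95 on the log2 scale (edgeR adjusted p = 0.000172).

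**Figure D5:**
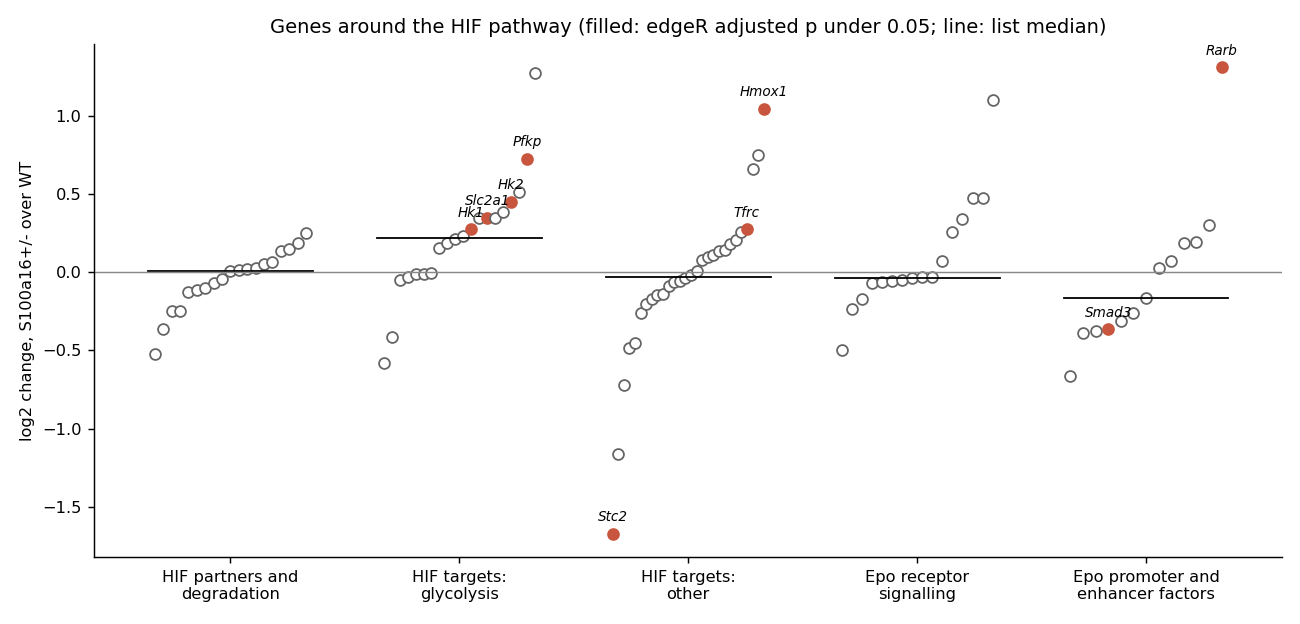
Log2 change (S100a16+/- over WT) of each tested gene in 5 gene lists around the pathway, genes sorted within a list, filled where the edgeR adjusted p is under 0.05, with the list median as a line. The glycolysis list has a median of 0.22 with 4 genes called higher, and the partners, other targets and receptor signalling lists have medians of 0.01, -0.03 and -0.04.

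Downstream of Epor, 0 of 16 tested signalling genes were called in the edgeR fit, beside 4.46% of all genes tested. Their median log2 change was -0.04. Without S100a16+/- replicate 3, 4 were called higher and 4 lower (50.0%, beside 32.2% of all genes tested). Csf2rb, the beta common receptor that can pair with Epor, had 26.4, 27.95 and 13.7 FPKM in S100a16+/- against 10.9, 12.5 and 9.75 FPKM in WT, without overlap (log2 change 1.10 ± 0.29 SE, edgeR adjusted p = 0.0983). Ptpn6, a phosphatase that ends Epor signalling, had 99.8, 114 and 75.0 FPKM in S100a16+/- against 65.6, 74.5 and 75.5 FPKM in WT, with overlap (log2 change 0.48 ± 0.17 SE, edgeR adjusted p = 0.182). Without S100a16+/- replicate 3 both were called higher, Csf2rb by 1.37 and Ptpn6 by 0.64 on the log2 scale (edgeR adjusted p = 0.000561 and 0.00404).

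Factors known to act at the Epo promoter or enhancer, or to alter Epo production, had 1 of 13 called higher, 1 lower (15.4% called, beside 4.46% of all genes tested) and a median log2 change of -0.17. Rarb, a retinoic acid receptor and itself a target of retinoic acid, had 2.42, 2.20 and 2.79 FPKM in S100a16+/- against 0.934, 1.16 and 0.996 FPKM in WT, or 1.31 ± 0.14 on the log2 scale (SE, with an adjusted p of 0.0138 in edgeR). Smad3, a mediator of TGF-beta signals, had 15.2, 14.4 and 14.9 FPKM in S100a16+/- against 19.6, 20.0 and 19.8 FPKM in WT, or -0.37 ± 0.05 on the log2 scale (SE, with an adjusted p of 0.0251 in edgeR). Rarb lay above and Smad3 below the WT range in each S100a16+/- library. Of 10 genes known from Epo-producing fibroblasts, 6 were tested and 1 was called lower, beside 1.61% of all genes tested. That gene was Gfra2, a receptor for neurturin, with 0.550, 0.644 and 0.813 FPKM in S100a16+/- against 3.81, 4.03 and 3.91 FPKM in WT (log2 change -2.50 ± 0.17 SE, edgeR adjusted p = 0.00399). Gfra2 was named after its values were seen.

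Of the 10 genes whose pattern was most like that of Epo, by Pearson r of log2(CPM + 0.5) over the 6 libraries, 9 were Tmem219 (0.999), Zbtb11 (0.995), Hs3st3b1 (0.995), Diaph1 (0.992), Slc35c1 (0.991), Dnaja3 (0.991), Atp2a2 (0.989), Cd320 (0.988) and Katnal1 (0.985). Since Epo was at 0 in all WT libraries, r mostly follows the difference between the genotypes. The closest, Tmem219, had 12.2, 10.02 and 9.82 FPKM in S100a16+/- against 7.22, 7.48 and 7.37 FPKM in WT. Like Epo it was highest in S100a16+/- replicate 1. Among the members r with Epo ran from -0.94 for Epor to 0.36 for Egln3.

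The cell type markers in these cultures are given for reading the values above. Over the stellate list the summed FPKM ran from 191 to 1238 in S100a16+/- and from 1033 to 1148 in WT. S100a16+/- replicate 3 was the lowest. Of 13 tested markers 0 were called in the edgeR fit, beside 4.46% of all genes tested. Without S100a16+/- replicate 3, 7 were called higher and 1 lower. In that fit 15.8% of all genes tested were called higher and 16.4% lower. Tagln, a contractile gene of myofibroblasts, followed Acta2 with 236, 245 and 38.6 FPKM in S100a16+/- against 196, 223 and 219 FPKM in WT. Over the macrophage list the sum ran from 13338 to 18337 in S100a16+/- and from 10438 to 10996 in WT. Of 15 markers 5 were called higher and 0 lower, beside 2.85% and 1.61% of all genes tested. The list went both ways, with 11 log2 changes above 0 and 4 below, and 8 were called higher without S100a16+/- replicate 3 and 4 lower. Those lower were the complement genes C1qa, C1qb and C1qc and the Kupffer cell receptor gene Timd4. Marco, a Kupffer cell scavenger receptor, had 2829, 3010 and 1930 FPKM in S100a16+/- against 1162, 1211 and 1218 FPKM in WT, and Lyz2, lysozyme, was also above WT in each S100a16+/- library. The part of macrophage content in the Hmox1 and Csf2rb differences was not tested.

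Hepatocyte markers, of interest because hepatocytes can also make Epo, summed to 151, 149 and 711 FPKM in S100a16+/- replicates 1, 2 and 3 against 280, 270 and 238 FPKM in WT. Transferrin (Trf) alone gave 140 and 138 FPKM of the sums in replicates 1 and 2. The median log2 ratio to the WT mean of the 10 tested markers was -2.37, -2.79 and 2.64 in these 3 replicates. Both measures were highest in replicate 3 and below WT in replicates 1 and 2. The part of hepatocytes in the Epo counts was not tested. Of 10 tested hepatocyte markers 0 were called in the edgeR fit, beside 4.46% of all genes tested. Without S100a16+/- replicate 3, 9 were called lower. In that fit 16.4% of all genes tested were called lower. Albumin (Alb) had 4.81, 5.52 and 242 FPKM in S100a16+/- against 64.6, 57.4 and 42.9 FPKM in WT, while transferrin (Trf) was 138 to 149 FPKM in S100a16+/- and 160 to 169 FPKM in WT. Erythroid markers, the cells on which Epo acts, were near absent. Their 12 genes summed to at most 0.456 FPKM in S100a16+/- and 0.362 FPKM in WT, 7 were at 0 in every library and none was tested, with Alas2 at 0.304 FPKM or less and Klf1 at 0.226 FPKM or less. Of 3 tested bile duct markers Spp1, osteopontin, which macrophages also make, was called higher (log2 change 2.41 ± 0.43 SE, edgeR adjusted p = 0.0412) and Krt19 was not (adjusted p = 0.884). Of 2 tested neutrophil markers Csf3r was not called and S100a8 was called higher. S100a8 had 12.4, 15.0 and 6.58 FPKM in S100a16+/- against 0.975, 2.01 and 0.572 FPKM in WT (edgeR adjusted p = 0.0386), and the sole lymphocyte marker tested, Cd79b, had 0.519, 0.349 and 2.58 FPKM in S100a16+/- against 2.31, 2.64 and 2.78 FPKM in WT, with Trac at 1.31 FPKM or less in every library.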

How the data were processed

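The deposited table lists 55401 mouse genes by Ensembl identifier. Its counts, per the file headers, are 1 whole number for each gene and library, unscaled. Its FPKM, per the file headers, are the authors' values corrected for exon length and depth. Genes with 0 counts carry 0.0001 FPKM as a placeholder, read here as 0. Per the labels' protocols, poly(A) RNA was made into strand-marked (dUTP) libraries with molecular identifiers and sequenced from both ends. Without giving roles, the submitters' processing notes name edgeR, DESeq2, StringTie 1.3.4d, UMI-tools, HISAT2 2.0.4 and cutadapt 1.9. Not given in the sources used here are the genome build and whether counting used strand or collapsed identifiers. Members' coordinates equal GENCODE M21 (GRCm38) except those of Arnt.

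The test covered the 12766 genes that reached 1 FPKM in 3 or more libraries, with the filter set on all 6 libraries and kept when a library was left out. The fit used TMM scaling and the quasi-likelihood F test of edgeR 4.0.16 under R 4.3.3, and genotype was its sole term. P-values were adjusted by Benjamini-Hochberg over all genes tested, and a gene was called under 0.05. Log2 changes are S100a16+/- over WT, with an SE equal to their absolute value over the square root of F. The steps were tested on simulated data whose replicates shared a common spread. No simulated library stood apart as S100a16+/- replicate 3 does, so that feature was not covered. Replicate libraries differed by more than counting noise. Alternatives were RLE size factors, library totals, DESeq2 1.42.0, limma 3.58.1 on log2(FPKM + 1) or log2(FPKM + 0.1), other filters, the replicate number as a block and each library left out.

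The members and lists were chosen with earlier results of these data known. Named were all members, up to 6 called genes per pathway list or the 2 of smallest p where none was called, genes overlapping a member, the neighbours of Epo, the 10 genes most like Epo (1 of them is not reported here), genes at 0 counts in WT with at least 50 in every S100a16+/- library, for each cell type its 2 markers of highest level, S100a16 and Cxcr4. Further genes are said to be named after their values were seen. Siah1a, Ldha, Pgk1, C1qa, C1qb, C1qc, Timd4, Gm13230, Xist and Ddx3y are of this kind.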

Additional observations from a re-analysis of the deposited data

How the results depend on the processing

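For the 8 tested members other than Epo and for Hif3a without the filter, 104 of 113 alternative values kept direction and side of the threshold. In 3 the threshold was passed, for Epor by DESeq2 and for Epor and Egln3 without S100a16+/- replicate 3. In 6 a small log2 change turned sign. With a library left out, the log2 change ran from -0.063 to 0.00412 for Epas1, from -0.10 to 0.15 for Hif1a, from -0.14 to 0.17 for Egln1 and from -0.0070 to 0.53 for Egln3. Egln1 was -0.011 and -0.013 in limma on log2(FPKM + 1) and log2(FPKM + 0.1). DESeq2 called 1 of the 8 members, and leaving out a library called 0 to 2. Mean Epo in S100a16+/- was 3.27 CPM, 3.20 CPM by library totals and 1.94 to 4.06 CPM with a library of that group left out.

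All genes called numbered 570, with 1888 by DESeq2, 243 with no filter and 32 to 4115 with a library left out. Of the 570, 364 were higher and 206 lower, against 282 and 252 with library totals and 260 and 247 in limma on log2(FPKM + 1). HIF targets called were 7, with 13 by DESeq2, 0 with no filter, 4 with edgeR's own filter and 0 to 29 with a library left out. Deviations from the group mean correlated at r = -0.153, 0.0483 and -0.0793 between same-numbered libraries of both genotypes. S100a16+/- replicate 3 lay far from its group, so these values cannot tell whether the numbers pair the libraries. The fit with the replicate block called 0 genes, with 2207 at an unadjusted p under 0.05, and thus 0 members and 0 HIF targets. Over 36 other named genes, 314 of 451 alternative values kept direction and side of the threshold. In 105 a call was lost, in 11 the threshold was passed and in 21 the sign turned. With no filter S100a16, Smad3, Marco, S100a8 and Spp1 were among those that lost their call (edgeR adjusted p = 0.0516 to 0.0665). Spp1 also lost it in both limma fits (limma adjusted p = 0.0555 and 0.0567). For other named genes whose sign turned, the log2 change with a library left out ran from -0.62 to 0.27 for Acta2, -0.58 to 0.24 for Tagln, -3.35 to 1.20 for Alb, -0.030 to 0.093 for Krt19, -0.0072 to 0.21 for Csf3r, -0.062 to 0.052 for Gnb2 and -0.046 to 0.12 for Gigyf1. By library totals Krt19 was -0.015 and Gigyf1 -0.016. In the limma fits Alb was -1.40 and -1.53, Krt19 -0.0087 and -0.012, and Gigyf1 -0.014 and -0.017. Alb was -2.04 with the replicate block, and Gnb2 was 0.000538 by RLE size factors and 0.000575 by DESeq2. The cause of these moves was not tested. The counts of Hif3a were too few for a test with the filter used.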
